A study of Mus musculus with 48 samples.

Results

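The diet by fasting interaction in the liver of wild-type mice asks which responses to fasting differ between mice on control diet (CTRL diet) and mice on high-fat diet (HFD). It was taken as the fasting effect on HFD minus the fasting effect on CTRL diet, and it used the 24 LWT arrays out of 48 in the series, chosen by their sample titles. LWT stands for *p110α* hep+/+ mice, male littermates on a C57BL/6J background that carry the floxed *p110α* alleles but no albumin-Cre transgene. The LKO mice of the series, by contrast, carry albumin-Cre, which deletes *p110α* in hepatocytes. Mice were 12 weeks old when the diets began, and they stayed for 12 weeks on CTRL diet or on HFD, whose fat supplied 60% of its energy. They were killed at ZT16, 16 h after lights on, either with free access to food (fed) or after 24 h without food (fasted). This gave 6 livers for each of 4 groups, CTRL fed, CTRL fasted, HFD fed and HFD fasted, each read on 1 one-colour Agilent array. The 6 slides held 1 array of each group, so each slide gave 1 full value of the interaction.

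Fasting moves the liver from storing to releasing fuel. Insulin falls, forkhead transcription factors of the FOXO family enter the nucleus and raise genes such as *Igfbp1*, *Pck1* and *G6pc*, while SREBP-1c and SREBP-2, which drive fatty acid and cholesterol synthesis, lose activity. Fatty acids released by adipose tissue activate the nuclear receptor PPARα, which raises the enzymes of fatty acid oxidation, ketone body production and the hormone FGF21, and long-term HFD feeding is known for hepatic insulin resistance and lipid loading.

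Levels are log2 normalized signals, on which a difference of 1 is a doubling. A negative interaction means that the fasting effect was lower on HFD than on CTRL diet, and a positive one that it was higher. A gene was called when the limma adjusted p of its interaction was at most 0.05 and the fasting fold changes of both diets differed by more than 1.5-fold. Adjusted p are limma's throughout, corrected over every probe that passed the filter by the Benjamini–Hochberg method.

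The interaction was called for 183 of 20468 genes tested (0.894%), of which 122 were negative (0.596%) and 61 positive (0.298%). Of these 183, 44 carry predicted or clone names, and some of those may read the same transcript as a gene counted beside them. With the adjusted p alone, 484 genes passed (2.36%), 310 negative and 174 positive. The median interaction over all genes was 0, and its median absolute size was 0.11. On all 6 slides the interaction had the same sign for 141 of the 183 genes, on 5 slides for 41 and on fewer for 1, and both washing batches gave that sign for all 183. These slides and batches also made the calls, so the counts are descriptions. Without array weights 117 genes were called, and without the filter on dim probes 111. All 62 called genes of the naming rule kept their sign in every alternative that measured them. Calls of genes named below were kept in at least 20 of the 24 fits that left out 1 array, except where a lower count is given. Over 14 processing settings they were kept in 5 for *Cyp4a14*, *Ikzf4* and *Saa4*, in 7 for *Birc5*, *Ly6c2* and *Trib3*, in 8 for *Atf5*, in 9 for *C6*, *Cyp8b1*, *Nfe2l2* and *Tubb2a*, and in at least 10 for the others.

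The called genes were sorted by how fasting moved them on each diet. These classes share their arrays with the interaction and are descriptions. In the largest class, 69 genes rose with fasting on CTRL diet and rose less, or no longer passed, on HFD (blunted rise), with a median fasting effect of 0.99 on CTRL diet and 0.06 on HFD. Another 34 fell with fasting on CTRL diet and fell less or no longer passed on HFD (blunted fall), with medians of -0.92 and -0.05. Fasting lowered 40 genes on HFD only or more strongly there (strengthened fall), with medians of -0.15 and -0.91, and 12 of these also passed on CTRL diet. It raised 24 genes on HFD that did not pass on CTRL diet (strengthened rise), with medians of -0.03 and 0.97. Finally, 16 genes passed on both diets in opposite directions, 13 of them rising on CTRL diet and falling on HFD and 3 the other way round.

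**Figure D1:**
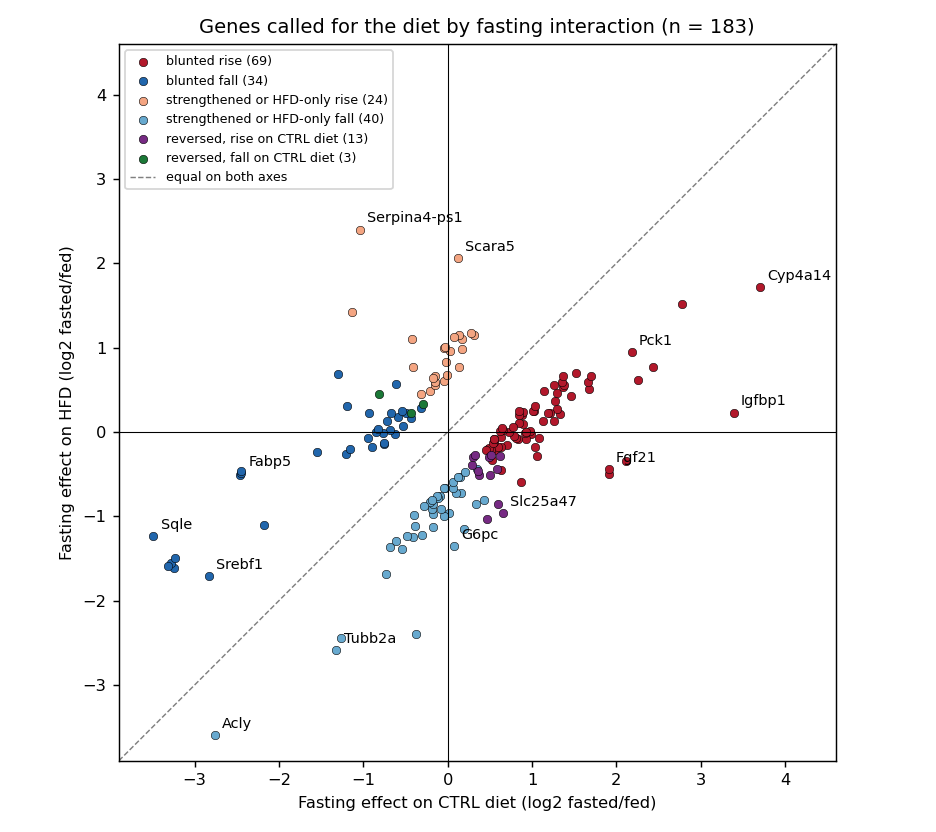
Fasting effect on CTRL diet (x axis) and on HFD (y axis), both as log2 fasted over fed, for the 183 called genes, 1 point per gene coloured by class, with a dashed line where both effects are equal. Genes below the line have a negative interaction, among them *Igfbp1* at 3.39 and 0.23, and genes above it a positive one, among them *Scara5* at 0.12 and 2.06.

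Most genes called for fasting on one diet alone had no called interaction. Fasting on CTRL diet was called, with the same thresholds, for 1113 genes (5.44%) and fasting on HFD for 964 (4.71%). Of the 542 genes called on both diets, 540 moved in the same direction. Of the 993 genes called on 1 diet only, the interaction was called for 125. It was also called for 25 genes called on both diets and for 33 called on neither.

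Since the same interaction is the HFD effect in fasted mice minus that in fed mice, the called genes were placed by the state in which the diets differed. At an adjusted p of at most 0.05 the diets differed in fed mice for 24.1% of all genes and in fasted mice for 15.9%. Of the 183 called genes, 116 differed between diets in fed mice only, 33 in fasted mice only, 33 in both states and 1 in neither. The diet difference was the larger one in fed mice for 141 genes and in fasted mice for 42, and it had opposite signs in both states for 139. For the blunted rises the median HFD effect was 0.55 in fed and -0.29 in fasted mice, and for the strengthened rises it was -0.92 and 0.06.

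**Figure D2:**
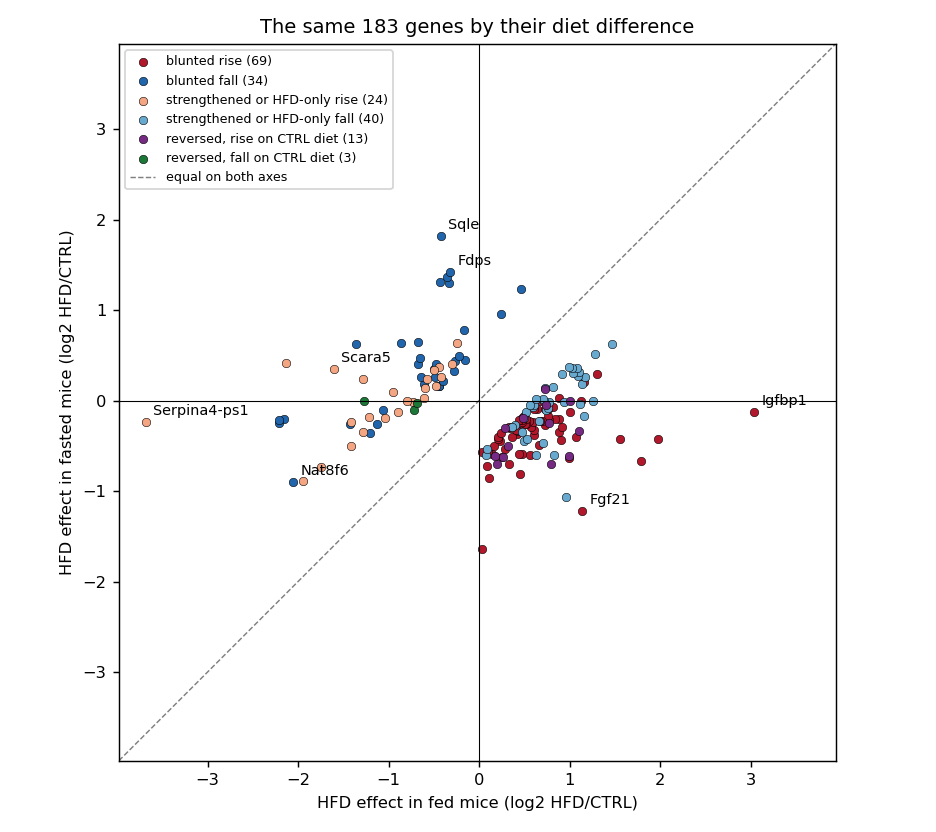
HFD effect in fed mice (x axis) and in fasted mice (y axis), both as log2 HFD over CTRL diet, for the same 183 genes and classes, with a dashed line where both are equal. *Igfbp1* lies at 3.04 and -0.13, a diet difference in fed mice, and *Sqle* at -0.42 and 1.82, a diet difference in fasted mice.

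Some facts of the arrays bear on these values. In the 24 LWT arrays 50.1% to 57.4% of probes were well above background, no spot was saturated, array weights lay between 0.59 and 1.72, and arrays of a group correlated at 0.9911 or more across genes. The 8 hepatocyte markers had summed log2 levels of 20.99 to 21.11 in all 24 livers. Whole liver was measured, so fewer cells of a type and less RNA per cell cannot be told apart.

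The insulin-responsive genes held the largest negative interaction of all genes tested. Of 23 measured genes of the insulin, FOXO and IGF axis, 3 were called, all negative (*Igfbp1*, *Irs1* and *Trib3*), and the median interaction of the list was -0.01 against 0 over all genes. *Igfbp1* encodes a secreted protein that binds insulin-like growth factors and is a classical target of FOXO1 (probe on chromosome 11, 7102442 to 7102501, mm9). Its lowest, median and highest levels were 9.46, 11.21 and 13.93 in CTRL fed livers and 14.3, 14.62 and 14.86 in CTRL fasted livers. On HFD they were 12.61, 14.2 and 15.07 in fed and 13.87, 14.28 and 14.98 in fasted livers. Fed livers on CTRL diet thus lay below all fasted ones of that diet and were the most scattered, whereas fed and fasted livers on HFD overlapped. Fasting raised *Igfbp1* by 3.39 on CTRL diet (SE 0.44, adjusted p = 8.27e-08), the value on HFD was 0.23 (adjusted p = 0.754), and the interaction was -3.16 (SE 0.62, adjusted p = 0.00275).

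*Irs1*, an adaptor between the insulin receptor and PI3K, was among the genes that reversed. Its levels were 9.83, 9.94 and 10.01 in CTRL fed livers (lowest, median, highest) and 9.93, 10.33 and 10.45 in CTRL fasted livers. On HFD they were 10.05, 10.27 and 10.48 when fed and 9.51, 9.77 and 9.98 when fasted. Fed and fasted livers overlapped on CTRL diet and were apart on HFD. Fasting raised it by 0.36 on CTRL diet (adjusted p = 0.00482) and lowered it on HFD, where the effect was -0.46 (adjusted p = 0.00033), an interaction of -0.82 (SE 0.14, adjusted p = 0.00054). *Trib3*, a pseudokinase that binds AKT, rose by 1.52 on CTRL diet and by 0.7 on HFD, with an interaction of -0.82 (adjusted p = 0.0458). Its call was kept in 6 of the 24 fits that left out 1 array. *Irs2*, the other main insulin receptor substrate of liver, rose by 1.94 on CTRL diet and 0.98 on HFD, and its interaction of -0.96 did not pass (95% interval -1.69 to -0.23, adjusted p = 0.163). Without CTRL fed replicate 2, whose *Irs2* level of 11.17 was the highest of its group, the interaction was -1.18 and was called (adjusted p = 0.036). *Pik3ca*, which encodes p110α itself, had an interaction of 0.05 (95% interval -0.17 to 0.27, adjusted p = 0.867).

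Among 16 measured genes of gluconeogenesis, *Pck1* and *G6pc* were called, both negative, and 5 passed the adjusted p, all negative. The list had a median interaction of -0.2 (SD over slides 0.18), and leaving out 1 array moved it between -0.31 and -0.17. Here and below, such an SD is that of single slides, each with 1 liver per group. It is not the uncertainty of the median over all livers. *Pck1*, which encodes the cytosolic phosphoenolpyruvate carboxykinase (chromosome 2, 172984307 to 172984366, mm9), had levels of 13.94, 14.89 and 16.49 in CTRL fed livers and 16.7, 17.08 and 17.32 in CTRL fasted livers. On HFD the levels were 15.17, 15.75 and 16.26 when fed and 16.4, 16.65 and 16.9 when fasted, so fed and fasted livers stayed apart on both diets. The rise was 2.18 on CTRL diet (SE 0.2, adjusted p = 3.05e-11) and 0.95 on HFD (adjusted p = 0.000256), an interaction of -1.23 (SE 0.28, adjusted p = 0.0131). *G6pc*, the catalytic subunit of glucose-6-phosphatase, which releases glucose from the liver (chromosome 11, 101238947 to 101239006, mm9), was lowered by fasting on HFD alone. Its levels were 14.39, 14.61 and 15.19 in CTRL fed and 14.12, 14.79 and 15.4 in CTRL fasted livers, which overlapped. HFD fed livers held 15.04, 15.6 and 15.72 and HFD fasted livers 13.43, 14.11 and 14.75, with no overlap. The effect on HFD was -1.35 (SE 0.2, adjusted p = 1.27e-06), against a value of 0.08 on CTRL diet (adjusted p = 0.802), an interaction of -1.43 (SE 0.29, adjusted p = 0.00364). *Ppargc1a*, the coactivator PGC-1α, rose by 0.93 and 0.43, and its interaction of -0.5 did not pass (adjusted p = 0.192).

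Promoters are shown for 4 called genes with negative interactions that held the insulin response core CAAAACA, or TGTTTTG on the other strand. FOXO proteins are known to bind this core. The genes fell into 3 different classes, and other genes that held the core are named after the sequences. The sequences are the 250 bases before the RefSeq start on GRCm38.p6, written 5′ to 3′ on the gene's strand, with the core in capitals. They lie at chr11:7197537-7197786 (plus strand) for *Igfbp1*, chr11:101367466-101367715 (plus strand) for *G6pc*, chr1:82291440-82291689 (minus strand) for *Irs1* and chr16:21787835-21788084 (minus strand) for *Ehhadh*, an enzyme of peroxisomal oxidation described further on.
Igfbp1: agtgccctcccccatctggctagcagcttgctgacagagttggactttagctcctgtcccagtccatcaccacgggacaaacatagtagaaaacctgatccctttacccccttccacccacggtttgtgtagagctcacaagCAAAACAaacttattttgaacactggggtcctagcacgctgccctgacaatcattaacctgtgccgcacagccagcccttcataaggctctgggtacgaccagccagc
G6pc: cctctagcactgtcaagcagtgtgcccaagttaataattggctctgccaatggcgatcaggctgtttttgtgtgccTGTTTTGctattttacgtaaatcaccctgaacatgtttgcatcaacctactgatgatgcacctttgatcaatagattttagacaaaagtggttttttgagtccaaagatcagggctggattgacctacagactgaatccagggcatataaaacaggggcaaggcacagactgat
Irs1: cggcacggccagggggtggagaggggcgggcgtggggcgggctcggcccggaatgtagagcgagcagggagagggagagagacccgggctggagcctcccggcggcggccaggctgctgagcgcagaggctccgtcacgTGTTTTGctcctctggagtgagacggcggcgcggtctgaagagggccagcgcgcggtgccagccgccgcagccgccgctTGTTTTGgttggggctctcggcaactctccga
Ehhadh: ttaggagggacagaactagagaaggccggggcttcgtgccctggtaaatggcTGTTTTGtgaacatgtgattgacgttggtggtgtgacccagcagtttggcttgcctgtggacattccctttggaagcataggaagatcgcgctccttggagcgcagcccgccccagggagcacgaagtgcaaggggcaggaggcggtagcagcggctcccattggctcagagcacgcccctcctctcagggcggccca

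The core began 108 bases before the start of *Igfbp1* and 174 bases before that of *G6pc*. RefSeq windows were matched for 12263 of the 20468 genes tested and for 104 of the 183 called. The core was in the windows of 10 of the 104 (9.62%) and of 5.06% of all genes with a window, counting either strand. The genes shown had negative interactions, but the core was also in *Urad* and *Saa4*, called with positive ones. It was in *Irs2* and *Cpt1a* as well, which were not called. By class it was in 3 of 13 strengthened rises, 4 of 38 blunted rises and 1 of 9 reversed rises. For falls it was in 1 of 16 blunted, 1 of 25 strengthened and 0 of 3 reversed. The forkhead core GTAAACA was in 5 of the 104 (4.81%, against 2.96%), the sterol response element TCACNCCAC in 2 (1.92%, against 1.27%) and the direct repeat DR1, the type of element that PPARα binds, in 0 (0.383% of all genes). No window was matched for the called genes *Sqle*, *Fdps*, *Cyp4a14*, *Cyp4a10* and *Angptl4*, so the counts of these elements leave them out. These counts describe letters in short windows, and binding was not measured.

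Most genes on the lists of fatty acid oxidation and other PPARα targets had negative interactions, and a minority of each list was called. Of 30 measured genes of oxidation and ketogenesis, all 30 had a negative interaction, 17 passed the adjusted p and 6 were called, with a median interaction of -0.4 (SD of the median over 6 slides 0.12) against 0 over all genes. Fasting raised 27 of the 30 on CTRL diet and 10 on HFD, where it lowered 2, at an adjusted p that 32.5% of all genes passed on CTRL diet and 28.4% on HFD. Of 23 other PPARα target genes, 22 had a negative interaction and 8 were called, with a median of -0.88 (SD over slides 0.13). Over all 20468 genes tested, 10245 had a negative and 10223 a positive interaction.

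*Ehhadh*, the peroxisomal bifunctional enzyme (chromosome 16, 21761914 to 21761973, mm9), rose on CTRL diet alone. Its levels were 12.11, 12.3 and 12.61 in CTRL fed and 12.88, 13.58 and 14.24 in CTRL fasted livers. HFD fed livers had 12.56, 12.61 and 12.94 and HFD fasted livers 12.46, 12.94 and 13.18, overlapping each other. The rise of 1.3 on CTRL diet (adjusted p = 1.04e-07) stood against 0.27 on HFD (adjusted p = 0.246), an interaction of -1.03 (SE 0.24, adjusted p = 0.0138). *Etfdh*, which passes electrons from acyl-CoA dehydrogenases to the respiratory chain, rose by 0.77 on CTRL diet, had 0.06 on HFD, and had an interaction of -0.7 (SE 0.11, adjusted p = 0.000187). *Slc22a5*, the carnitine transporter, rose on both diets, by 1.35 and 0.59 (interaction -0.77, adjusted p = 0.00807). *Crot*, peroxisomal carnitine octanoyltransferase, did so as well, by 1.37 and 0.53 (interaction -0.85, adjusted p = 0.0289, kept in 16 of 24 fits that left out 1 array). *Bdh1*, which forms the ketone body 3-hydroxybutyrate, reversed, with 0.3 on CTRL diet and -0.3 on HFD (interaction -0.6, adjusted p = 0.0239, kept in 18 of 24). The peroxisomal thiolase gene *Acaa1b* was lowered on HFD, at -0.47, with 0.2 on CTRL diet (interaction -0.67, adjusted p = 0.0249).

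*Cpt1a*, which admits fatty acids to mitochondria, rose by 0.59 on CTRL diet, had 0.21 on HFD and had an interaction of -0.38 that did not pass (95% interval -0.64 to -0.12, adjusted p = 0.105).

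*Fgf21*, the fasting hormone of the liver and a target of PPARα (chromosome 7, 52869305 to 52869364, mm9), rose with fasting on CTRL diet alone. Levels were 7.48, 7.83 and 8.51 in CTRL fed livers and 9, 9.81 and 10.52 in CTRL fasted livers, which did not overlap. They were 8.43, 8.99 and 9.87 in HFD fed and 8.28, 8.64 and 9.06 in HFD fasted livers, which did. Fasting raised *Fgf21* by 1.91 on CTRL diet (SE 0.23, adjusted p = 1.58e-08), and the value on HFD was -0.44 (adjusted p = 0.146), an interaction of -2.36 (SE 0.32, adjusted p = 2.01e-05). HFD raised it by 1.14 in fed mice and lowered it in fasted mice, where the difference was -1.22.

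**Figure D3:**
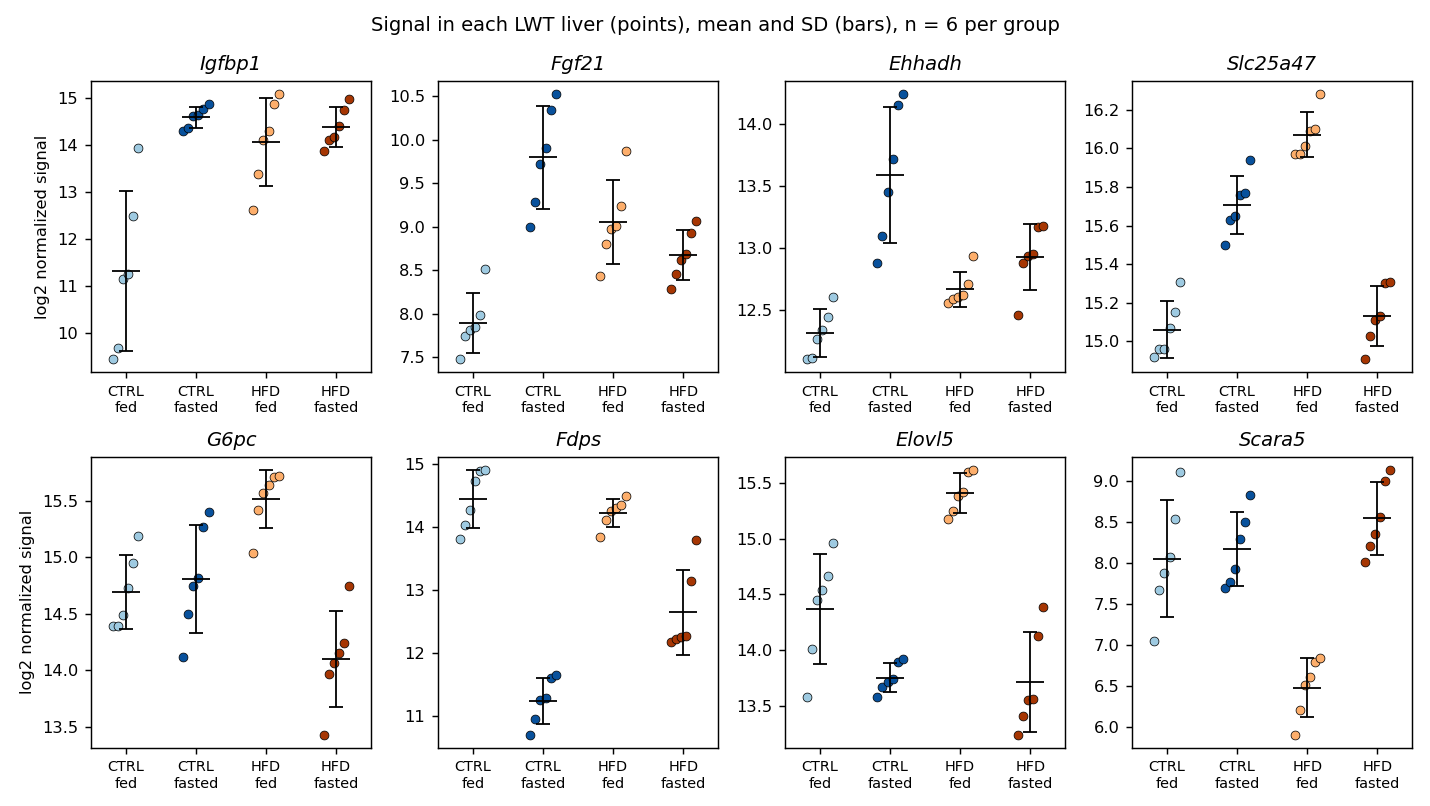
Log2 normalized signal (y axis) of 8 genes in each LWT liver, 1 point per mouse, with bars for the mean and SD of 6 mice per group. *Slc25a47* rises with fasting on CTRL diet and falls on HFD with no overlap, *G6pc* falls on HFD alone, and *Scara5* is low in HFD fed livers, at 5.91 to 6.84.

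The fatty acid ω-hydroxylases *Cyp4a14* and *Cyp4a10* rose on both diets and less on HFD. *Cyp4a14* rose by 3.7 on CTRL diet and 1.72 on HFD, with an interaction of -1.98 (SE 0.56, adjusted p = 0.0498), and its call was kept in 5 of 24 fits that left out 1 array. *Cyp4a10* rose by 2.78 and 1.52, with an interaction of -1.26 (adjusted p = 0.0316), kept in 17 of 24. These genes belong to a family of near-identical copies, so part of the signal may be shared. *Angptl4*, an inhibitor of lipoprotein lipase, rose by 1.7 and 0.66 (interaction -1.04, SE 0.22, adjusted p = 0.0054). *Acot4*, a peroxisomal acyl-CoA thioesterase, and *Hilpda*, an inhibitor of the lipase ATGL, rose on CTRL diet by 0.81 and 0.52. On HFD they had -0.07 and -0.33, and their interactions were -0.88 and -0.85, with adjusted p of 0.018 and 0.00903. *Txnip*, an arrestin-like protein that limits glucose uptake, rose by 1.19 on CTRL diet and had 0.23 on HFD (interaction -0.96, adjusted p = 0.022). *Pdk4*, which shuts off pyruvate oxidation, had 1.33 and -0.17, and its interaction of -1.5 did not pass (95% interval -2.58 to -0.42, adjusted p = 0.135), nor did that of *Acot1*, at -0.7 (adjusted p = 0.203).

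**Figure D4:**
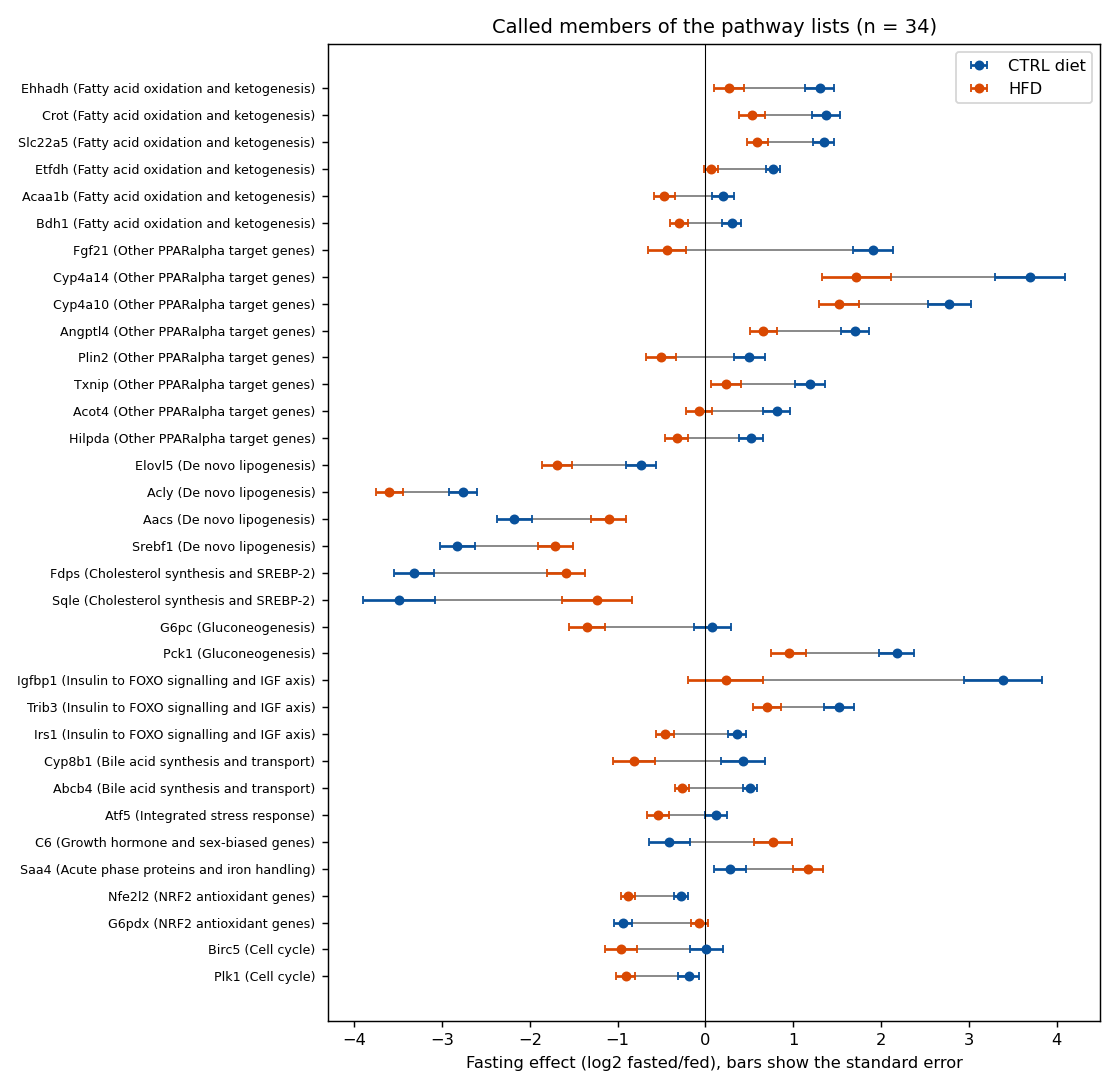
Fasting effect as log2 fasted over fed (x axis) on CTRL diet and on HFD, with standard errors, for the 34 called members of the pathway lists, grouped by list. All 8 called PPARα targets outside oxidation lie further right on CTRL diet, while *Fdps* and *Sqle* lie further left on CTRL diet.

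Of 24 measured genes of cholesterol synthesis and SREBP-2, *Fdps* and *Sqle* passed and were called, both positive. The median interaction of the list was 0.39, smaller than the SD of 0.64 over single slides, and 19 genes had a positive value. Leaving out 1 array moved the median between 0.32 and 0.47. Fasting lowered 22 of the 24 on CTRL diet and 18 on HFD, against 3386 and 3003 of all 20468 genes tested. *Fdps*, farnesyl diphosphate synthase (chromosome 3, 88897549 to 88897608, mm9), had levels of 13.82, 14.51 and 14.9 in CTRL fed and 10.71, 11.27 and 11.65 in CTRL fasted livers. HFD fed livers held 13.85, 14.28 and 14.49 and HFD fasted livers 12.18, 12.27 and 13.79, all above the CTRL fasted ones. Fasting lowered *Fdps* on both diets, with effects of -3.32 (SE 0.22) on CTRL diet and -1.59 (SE 0.22) on HFD, and the interaction was 1.73 (SE 0.31, adjusted p = 0.00114). Called with no gene symbol were 3 transcript probes, with interactions of 1.63, 1.72 and 1.74 (ENSMUST00000177157, NAP002856-002 and CJ042244), and whether they share signal with *Fdps* was not tested.

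The other called gene of the list was *Sqle*, squalene epoxidase (chromosome 15, 59162688 to 59162747, mm9). CTRL fed livers had 9.52, 10.47 and 11.25 and CTRL fasted livers 6.17, 6.88 and 7.83, while on HFD fed livers had 8.57, 10.4 and 10.76 and fasted livers 7.51, 8.59 and 10.27. The fed and fasted livers overlapped on HFD and not on CTRL diet. Its fasting effects were -3.49 on CTRL diet and -1.24 on HFD (adjusted p = 0.0158), an interaction of 2.25 (SE 0.57, adjusted p = 0.0257), and HFD raised it in fasted mice by 1.82. Values on single slides ran from -0.68 to 6.29, and the call was kept in 20 of 24 fits that left out 1 array. *Hmgcs1*, which makes the first committed intermediate, had -0.83 and -0.94, an interaction of -0.11 (95% interval -0.59 to 0.36, adjusted p = 0.867).

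De novo lipogenesis split. Fasting lowered 20 of 21 measured genes on CTRL diet and 18 on HFD, with the counts over all genes as given for the cholesterol list. Of the 21, 15 had a positive and 6 a negative interaction, and 2 were called in each direction. The median of 0.32 was smaller than the SD of 0.79 over single slides, and leaving out 1 array moved it between 0.19 and 0.37. *Srebf1*, the gene of SREBP-1 (chromosome 11, 60013214 to 60013273, mm9), had levels of 15.52, 16.29 and 16.52 in CTRL fed and 12.86, 13.4 and 14.04 in CTRL fasted livers. On HFD it had 15.08, 15.7 and 15.82 when fed and 13.22, 13.91 and 14.42 when fasted. Fed and fasted livers did not overlap on either diet. The fasting effect was -2.83 on CTRL diet and -1.71 on HFD, an interaction of 1.12 (SE 0.28, adjusted p = 0.0246). *Aacs*, which makes acetoacetyl-CoA for lipid synthesis, had -2.18 and -1.1 (interaction 1.08, adjusted p = 0.0322, kept in 18 of 24).

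*Acly* and *Elovl5* were the called genes with a negative interaction. *Elovl5*, an elongase of polyunsaturated fatty acids (chromosome 9, 77832205 to 77832264, mm9), had levels of 13.58, 14.49 and 14.96 in CTRL fed and 13.58, 13.73 and 13.92 in CTRL fasted livers. HFD fed livers stood above all others, at 15.18, 15.41 and 15.62, and HFD fasted livers at 13.24, 13.55 and 14.39. Its fasting effects were -0.73 on CTRL diet and -1.69 on HFD, with an interaction of -0.96 (SE 0.24, adjusted p = 0.0249). *Acly*, ATP citrate lyase, had -2.76 and -3.6 (interaction -0.84, SE 0.22, adjusted p = 0.0278). The main synthetic enzyme gene *Fasn* fell on both diets, with -4.47 and -4.14, and had an interaction of 0.33 (95% interval -0.21 to 0.86, adjusted p = 0.587). For *Scd1*, a desaturase, the interaction was 0.31 (95% interval -0.37 to 0.98) and for *Pnpla3*, a lipase, 0.84 (-0.03 to 1.72), and neither passed, with adjusted p of 0.71 and 0.341. *Pnpla3* was called where any probe of a gene could give the call (1.03, adjusted p = 0.0271), and in washing batches 1 and 2 alone it had -0.16 and 1.88. *Pnpla3* was well above background on 1 of 6 fasted arrays of each diet, so its values when fasted are near the floor.

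**Figure D5:**
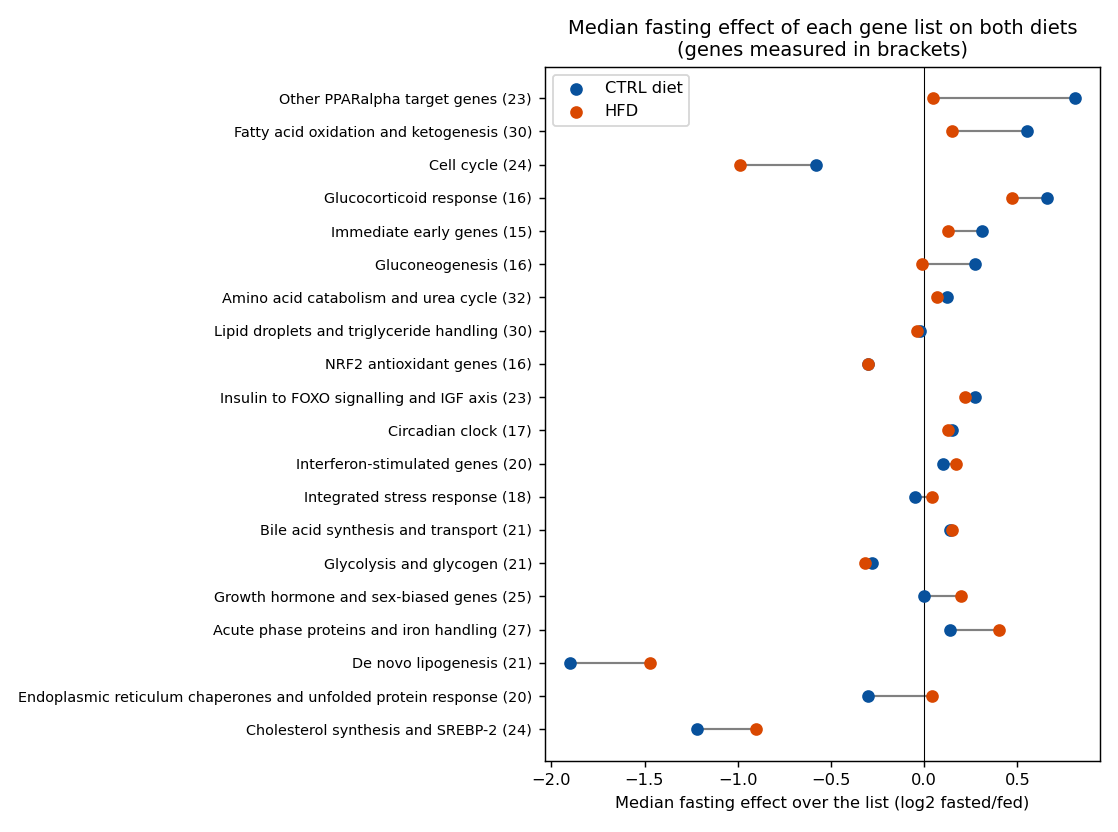
Median fasting effect (log2 fasted over fed, x axis) of the 20 pathway lists on CTRL diet and on HFD, ordered by median interaction. Other PPARα targets go from 0.81 to 0.05 and oxidation genes from 0.55 to 0.15, while cholesterol synthesis goes from -1.22 to -0.9.

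The smallest adjusted p of all genes tested was that of *Slc25a47*, a liver-specific mitochondrial carrier (chromosome 12, 110094661 to 110094720, mm9). Its levels were 14.92, 15.02 and 15.31 in CTRL fed, 15.5, 15.71 and 15.94 in CTRL fasted, 15.97, 16.05 and 16.28 in HFD fed and 14.91, 15.12 and 15.31 in HFD fasted livers. No 2 groups that differ in diet or state alone overlapped. Fasting raised it by 0.65 on CTRL diet (adjusted p = 6.53e-07) and lowered it on HFD, at -0.96 (adjusted p = 4.19e-11), and the interaction was -1.6 (SE 0.13, adjusted p = 2.51e-11).

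Other genes reversed from a rise to a fall. *Tor3a*, of the torsin family of ATPases, had 0.47 on CTRL diet and -1.03 on HFD (interaction -1.5, SE 0.25, adjusted p = 0.000451). *Plin2*, a coat protein of lipid droplets and the 1 called gene of 30 measured lipid droplet genes (median -0.05), had 0.5 and -0.51 (interaction -1.01, adjusted p = 0.0209), and HFD raised it by 1.01 in fed mice, with a value of 0 in fasted mice. *Abcb4*, which exports phosphatidylcholine into bile, had 0.51 and -0.27 (interaction -0.78, SE 0.11, adjusted p = 2.18e-05). *Tnfaip8l1* and *Zfp750* had interactions of -0.9 and -0.79, with adjusted p of 0.000464 and 0.000259. The one named reversal from a fall to a rise, *Serpina5*, was dim, not well above background on any HFD fed array. It was well above background on 3 of 6 arrays in each fasted group and on all 6 CTRL fed arrays, so its size of change is not given for either diet. Its fed and fasted livers overlapped on both diets.

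Outside the lists, the blunted rises were led by *Krt23*, a keratin, and *Lamb3*, a laminin chain. *Krt23* had levels of 7.49, 8.12 and 9.58 in CTRL fed, 9.89, 10.39 and 11.37 in CTRL fasted, 9.8, 10.14 and 10.43 in HFD fed and 9.32, 9.91 and 10.17 in HFD fasted livers. CTRL fed livers lay below the CTRL fasted and HFD fed ones, while the HFD fed and fasted livers overlapped. The interaction of *Krt23* was -2.45 (SE 0.38, adjusted p = 0.000133) and that of *Lamb3* -2.41 (SE 0.39, adjusted p = 0.000259). *Rab30*, a small GTPase of the Golgi, rose by 2.26 and 0.62, with all 4 comparisons of diet and state free of overlap (interaction -1.63, SE 0.25, adjusted p = 0.000107). *Mfsd2a*, a carrier of lysophosphatidylcholine lipids, had an interaction of -1.35 (adjusted p = 0.0059).

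The blunted falls outside lipid synthesis included *Fabp5*, a fatty acid binding protein, and *Cyp2c70*, which makes muricholic acids in mice. *Fabp5* fell by 2.45 on CTRL diet, had -0.49 on HFD and an interaction of 1.96 (SE 0.39, adjusted p = 0.00324), and the called probes NAP111439-1 and NAP114472-1, with no gene symbol, had interactions of 1.95 and 1.99. *Cyp2c70* had -1.3 and 0.69 (interaction 2, SE 0.4, adjusted p = 0.00324). *Ihh*, a hedgehog ligand, *Ntrk2*, a neurotrophin receptor, *Ikzf4*, a zinc finger transcription factor, and *Nat8f6*, a member of a family of acetyltransferase copies, had interactions of 1.31, 1.5, 1.17 and 1.15, with adjusted p of 0.0316, 0.0249, 0.0477 and 0.000272. The calls of *Ihh*, *Ntrk2* and *Ikzf4* were kept in 16, 19 and 6 of 24 fits that left out 1 array. On single slides *Ntrk2* ran from -1.09 to 2.71. In bile acid metabolism 2 of 21 measured genes were called, both negative (median of the list 0.04). Beside *Abcb4*, this was *Cyp8b1*, the sterol 12α-hydroxylase, which was lowered by fasting on HFD, at -0.81, and had 0.43 on CTRL diet (interaction -1.24, adjusted p = 0.0426, kept in 8 of 24 fits that left out 1 array). *Cyp7a1*, the first enzyme of bile acid synthesis, had an interaction of 1.11 (95% interval 0.01 to 2.2, adjusted p = 0.31).

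Of the 24 strengthened rises, the diets differed for 19 in fed mice only and for 3 in both states, with HFD lower in fed mice. *Scara5*, a ferritin receptor (chromosome 14, 66382904 to 66382963, mm9), had levels of 7.05, 7.98 and 9.12 in CTRL fed and 7.7, 8.12 and 8.84 in CTRL fasted livers. HFD fed livers lay below all others, at 5.91, 6.56 and 6.84, and HFD fasted ones at 8.02, 8.46 and 9.14. Fasting raised *Scara5* by 2.06 on HFD (adjusted p = 2.28e-07), with 0.12 on CTRL diet, and the interaction was 1.95 (SE 0.4, adjusted p = 0.00493). *Serpina4-ps1*, a pseudogene of a serine protease inhibitor, had the largest positive interaction, 3.44 (SE 0.8, adjusted p = 0.0141), with 2.4 on HFD and -1.04 on CTRL diet. *Onecut1*, the hepatocyte transcription factor HNF6, had 1.42 on HFD and -1.14 on CTRL diet (interaction 2.55, SE 0.68, adjusted p = 0.0336, kept in 13 of 24 fits that left out 1 array). *Urad*, an enzyme of urate breakdown, had 1.01 and -0.03 (interaction 1.04, SE 0.14, adjusted p = 1.7e-05). The terminal complement genes *C8b* and *C6* had interactions of 1.05 and 1.18, with adjusted p of 0.0152 and 0.0333. The call of *C6* was kept in 14 of 24 fits. *C6* was also the 1 called gene of 25 measured growth hormone and sex-biased genes (median 0.08). *Saa4*, a constitutive serum amyloid, was the 1 called gene of 27 measured acute phase and iron genes. Its interaction was 0.88 (adjusted p = 0.0465, kept in 8 of 24). The median of that list was 0.27, with an SD over slides of 0.27, and leaving out 1 array moved it between 0.17 and 0.33. *Ces4a*, a carboxylesterase, was not well above background on any HFD fed array and was at least 1.89-fold higher in HFD fasted livers. The fit gave *Ces4a* an interaction of 1.52 (adjusted p = 0.00089), which rests on a group at the floor and ran from 1.04 to 3.48 over the alternatives. *Hamp*, the iron hormone hepcidin, had an interaction of -1 with a 95% interval of -4.18 to 2.17, which spans both directions.

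Of the 40 strengthened falls, the diets differed for 26 in fed mice only and for 11 in both states, with HFD higher in fed mice. *Tubb2a*, a β-tubulin, had levels of 14.03, 14.39 and 15.31 in CTRL fed and 12.64, 13.04 and 13.92 in CTRL fasted livers, against 15.29, 15.85 and 16.42 in HFD fed and 12.87, 13.29 and 14.1 in HFD fasted livers. The HFD fed livers ranged highest. *Tubb2a* fell by 1.32 and by 2.59 (interaction -1.27, SE 0.3, adjusted p = 0.0155), and its pseudogene *Tubb2a-ps2*, which may share its signal, had an interaction of -1.16. *Spon2*, a secreted matrix protein, and *Kyat3*, a kynurenine aminotransferase, had interactions of -1.34 and -1.18, with adjusted p of 0.0181 and 0.0149. *Nfe2l2*, the antioxidant regulator NRF2, fell by 0.28 and by 0.88 (interaction -0.6, adjusted p = 0.00243, kept in 16 of 24). With each gene read as the median of its probes, the interaction of *Nfe2l2* was -0.33 (adjusted p = 0.16) and that of *Kyat3* -0.71, and neither was called. With *G6pdx* it made up the called members of 16 measured NRF2 genes (median -0.04). *G6pdx*, which supplies NADPH, fell by 0.94 on CTRL diet and had -0.07 on HFD (interaction 0.87, SE 0.14, adjusted p = 0.000287). *Atf5*, which with *Trib3* made up the called members of 18 measured genes of the integrated stress response (median 0.02), had -0.65 (adjusted p = 0.0482, kept in 5 of 24 fits that left out 1 array), and *Asns*, a target of ATF4, had 0.17 (adjusted p = 0.901).

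Of 24 measured cell cycle genes, 23 had a negative interaction and 2 were called, *Birc5* and *Plk1*, which act in mitosis. The list's median interaction of -0.39 was smaller than the SD of 0.64 over single slides, and leaving out 1 array moved it between -0.48 and -0.34. On slide 3 *Birc5* and *Plk1* had values of 0.25 and 0.11, against negative values on the other slides. The replication genes *Mcm2*, *Mcm5* and *Mcm6*, singled out after their values were seen, had 1.34, 2.18 and 1.88 on slide 3 and 0.81, 1.44 and 0.93 on slide 4, and negative values on the other slides. On CTRL diet fasting lowered 16 of the 24 cell cycle genes and on HFD 23, against 3386 and 3003 of all 20468 genes tested. The median HFD effect of the list was 0.83 in fed and 0.51 in fasted mice. *Plk1* had levels of 5.97, 6.16 and 6.24 in CTRL fed, 5.84, 5.94 and 6.02 in CTRL fasted, 6.84, 7.05 and 7.59 in HFD fed and 6.05, 6.21 and 6.64 in HFD fasted livers. HFD fed livers were higher than all others. *Plk1* fell by 0.91 on HFD and had -0.19 on CTRL diet (interaction -0.72, SE 0.16, adjusted p = 0.0109). Its CTRL levels were low, though well above background on all 6 arrays of each group. How far such low levels limit a fall on CTRL diet was not tested. *Birc5* fell by 0.96 on HFD and had 0.01 on CTRL diet (interaction -0.96, adjusted p = 0.0367, kept in 12 of 24 fits that left out 1 array).

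Several lists held no called gene. They were amino acid catabolism and the urea cycle (32 measured, median interaction -0.08), glycolysis and glycogen (21, 0.06), the circadian clock (17, -0.01), endoplasmic reticulum chaperones (20, 0.33, with an SD over slides of 0.63), the glucocorticoid response (16, -0.23), interferon-stimulated genes (20, 0.01) and immediate early genes (15, -0.22). The medians of the glucocorticoid and immediate early lists were also smaller than their SDs over slides, 0.28 and 0.34, and leaving out 1 array moved them between -0.33 and -0.07 and between -0.29 and -0.09. For the endoplasmic reticulum chaperones it moved the median between 0.21 and 0.44. Among other genes named whatever their result, *Cidec*, *Igfbp2*, *Enho*, *Fst* and *Fgl1* had interactions of -0.58, -0.42, -0.1, 0.22 and -0.28, none of which passed.

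Among markers of other liver cells, *Ly6c2*, of inflammatory monocytes, was called, 1 of 9 measured markers of monocytes and neutrophils. Markers of macrophages, lymphocytes, sinusoidal endothelium, stellate cells, cholangiocytes, erythroid cells, adipocytes and acinar cells held no called gene. *Ly6c2* had -0.59 on CTRL diet and 0.18 on HFD (interaction 0.77, adjusted p = 0.0496, kept in 8 of 24 fits that left out 1 array). The summed level of the 9 monocyte and neutrophil markers ran from 12.41 to 12.99 in CTRL fed and from 12 to 12.38 in CTRL fasted livers, and from 12.84 to 13.56 in HFD fed and 12.86 to 13.57 in HFD fasted livers. That of the 9 T, NK and B cell markers ran from 12.87 to 13.27 in CTRL fed and 13.24 to 13.51 in CTRL fasted livers, which overlapped. On HFD it ran from 12.59 to 13.01 in fed and 13.13 to 13.73 in fasted livers, which did not overlap. The median fasting effect over these 9 markers was, however, -0.1 on CTRL diet and 0.05 on HFD. At the adjusted p fasting raised 1 of them on CTRL diet and 2 on HFD, and lowered 0 on either. The summed level of the 5 adipocyte markers ran from 9.45 to 13.41 in CTRL fed and 10.07 to 12.41 in CTRL fasted livers. On HFD it ran from 13.15 to 13.63 in fed and 12.55 to 15.2 in fasted livers. It was higher on HFD with no overlap between diets when fasted. The median HFD effect over the 5 markers was, however, 0.09 in fed and -0.01 in fasted mice. The part of such cells in the interactions above was not tested.

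In the LKO mice the same interaction was called for 591 genes (2.89%). Of the 183 genes called in LWT mice, 164 had the same sign in LKO mice and 77 were called in both. The share of all genes with the same sign is not given here. The median size of the interaction over the 183 was 0.85 in LWT and 0.61 in LKO mice, but choosing them by their LWT values favours larger sizes there. The test of the difference between genotypes, LKO minus LWT, was called for 71 genes (0.347%), of which 9 were among the 183. For *Igfbp1* the interaction was -0.1 in LKO mice, yet the difference from LWT mice did not pass (adjusted p = 0.111). For *Fgf21* it was -2.3 in LKO and -2.36 in LWT mice. *Fabp5* had -1.85 in LKO and 1.96 in LWT mice, a difference of -3.81 (adjusted p = 0.000286), and *Slc25a47* had -0.69 and -1.6, a difference of 0.91 (adjusted p = 0.0223). *Pik3ca* was not lower in LKO livers, at 13.02 to 13.71 against 12.58 to 13.45 in LWT livers, and whether its probe lies in the deleted exons is not given in the sources used here, so it does not check the genotype labels.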

How the data were processed

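Total liver RNA was labelled with Cy3 and hybridised on Agilent 8x60K mouse arrays, which the authors scanned and read with Feature Extraction 10.10.1.1. The deposited scanner files hold spot intensity values that were not normalized, and they place probes on mm9. A table of normalized log2 values, processed by the authors with limma, was used only as an alternative.

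Median spot intensity was taken to log2, outlier spots were left out and spots of a probe were averaged. Probes well above background on at least 5 of 6 arrays of a group were kept (30793 probes). Washing batch was removed with group means protected, and arrays were quantile normalized. All 48 arrays entered 1 limma fit (3.58.1, R 4.3.3) with array weights, without a replicate block. A gene was read from its brightest probe. Calls needed an adjusted p of at most 0.05 and over 1.5-fold. The number of arrays limits the precision.

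Named genes were, per class, the 8 with the largest interaction, leaving out predicted and clone names, every called member of 20 pathway and 10 marker lists, and a set named whatever its result, of which some genes are not reported here. The members and lists were chosen with earlier results of these data known. Probes were not placed in exons or UTRs. The test was checked on simulated data with independent normal noise for each gene. The simulation held no slides, washing batches or outlying livers, so the check does not cover these. Alternatives covered signal, scaling, filter, batch, weights, thresholds and leaving out each array.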

Additional observations from a re-analysis of the deposited data

Results flagged for a closer look

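In 14 of 312 groups of 6 values (4.49%), each a gene of the naming rule reported here in a group of livers, the highest or lowest liver stood apart from the others by more than Dixon's critical value, and chance alone does so in about 1 in 20 groups. They fell on 9 arrays, with at most 3 on any of them. Values are log2 normalized signals. In HFD fasted livers the lone values were 14.09 for *Acot1*, 14.35 for *Cyp4a10* and 8.42 for *Ntrk2* at the low end, and 11.19 for *Fabp5* and 10.03 for *Pdk4* at the high end. In HFD fed livers they were 11.42 for *Igfbp2* and 12.64 for *Kyat3* at the low end, and 15.29 for *Abcb4* and 7.70 for *Fst* at the high end. In CTRL fed livers they were the high values of *Enho*, 11.79, and *Irs2*, 11.17. In CTRL fasted livers *Nat8f6*, *Nfe2l2* and *Serpina5* had high values of 8.21, 11.56 and 6.21.

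The interaction differed between genotypes for *Slc25a47*, by 0.91 (LKO minus LWT, limma adjusted p = 0.0223), and for *Fabp5*, by -3.81 (limma adjusted p = 0.000286).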

How the results depend on the processing

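The 62 called genes of the naming rule kept their sign under every alternative, and 27 kept their call in all 24 fits that left out 1 array and in the processing settings that measured them (14, or 13 for *Ces4a* and *Serpina5*). Leaving out 1 array lost 1 to 21 of these calls, most without CTRL fed replicate 6. The cause of the changes below was not tested. Leaving out each array gave 132 to 218 called genes, 91 to 142 negative, 41 to 80 positive, 72 to 130 blunted, 41 to 83 strengthened and 11 to 20 reversed. Strengthened genes fell to 42 without HFD fed replicate 2 and to 41 without HFD fasted replicate 3. Genes called for fasting on 1 diet only and for the interaction numbered 82 to 147, the 82 without CTRL fed replicate 6. The interaction, not called, of *Enho* ran from -0.27 to 0.05 (0.04 and 0 without CTRL fed replicate 5 and HFD fed replicate 3) and that of *Hmgcs1* from -0.26 to 0.02.

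Deviations of same-numbered arrays from their group means correlated at -0.35 to 0.34 over 36 pairs, 12 of them over 0.1, so the numbers were not taken to pair the livers, although all 6 pairs of CTRL fasted and HFD fasted arrays had r above 0. With the replicate block, 149 genes were called for the interaction, and no count moved by over 1.5 times. Of the 62 called genes of the naming rule, 44 kept their call under that block, and all 62 kept their sign. With the authors' log2 values 173 were called. With processed signals scaled to the 75th percentile, which changes signal and scaling together, fasting was called for 1833 genes on CTRL diet, 1463 on HFD and 1590 on 1 diet only. Without the dim-probe filter there were 111 calls, 74 negative, 37 positive, 32 strengthened, 6 reversed and 77 also called for fasting on 1 diet only, with *Enho* at 0.02. Without washing batch correction 41 were strengthened. Without array weights there were 117 calls, 81 negative, 36 positive, 67 blunted, 40 strengthened, 10 reversed and 83 also called for fasting on 1 diet only, with *Enho* at 0.07.

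With no fold threshold there were 484 calls, 310 negative, 174 positive, 288 blunted, 164 strengthened and 31 reversed. Fasting then passed for 6647 genes on CTRL diet, 5823 on HFD and 5384 on 1 diet only, of which 381 had a called interaction. With over 2-fold these were 60, 35, 25, 38, 16 and 6, then 330, 251, 333 and 34. With unadjusted p there were 383 calls, 226 negative, 157 positive, 196 blunted, 141 strengthened and 242 also called for fasting on 1 diet only.

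In washing batch 1 alone, with 3 livers a group, there were 13 calls, 11 negative, 2 positive, 6 blunted, 5 strengthened, 2 reversed and 11 also called for fasting on 1 diet only. Passing adjusted p were 1944 genes for fasting on CTRL diet, 2042 for fasting on HFD, 1784 for HFD in fed and 972 in fasted mice. Median interactions were -0.01 for acute phase, 0.28 for growth hormone and -0.63 for other PPARα target genes, and those of *Fst*, *Pnpla3*, *Scd1* and *Igfbp2*, none called, turned to -0.12, -0.16, -0.27 and 0.13. In batch 2 alone these calls were 16, 14, 2, 13, 1, 2 and 15, with 2896 genes passing for fasting on HFD, 982 for HFD in fed and 931 in fasted mice, and *Asns* and *Hmgcs1* turned to -0.01 and 0.14.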
